A study of Mus musculus with 3 samples.

Results

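The neuronal pentraxins are a family of 3 genes, Nptx1, Nptx2 and Nptxr, and all 3 were found by symbol, 1 entry each, among the 31053 genes of the count tables. The genes were chosen by their CPM in these sections and across their spot groups, which were known, so their levels are a description and no test is attached to them. Spatial transcriptomes of fresh-frozen C57BL/6J mouse brain were measured on capture arrays, in 3 sections cut at 10 µm. The sections are O-Ex (treatment label Exercise), O-Ctrl and Y-Ctrl (both with the treatment label Control), with 1 section per group. O and Y are read here as old and young. How old the mice were, how they exercised and for how long, and how many were used is not given in the sources used here. A stated aim of the series was to learn how exercise acts on the aging brain and where in the tissue it does so. With 1 section per group, section, animal and condition cannot be told apart, and there is no replicate check on any difference below.

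Nptx1 and Nptx2 encode secreted proteins that assemble with each other and with Nptxr, a membrane-anchored relative, on the surface of excitatory synapses. The pentraxin domain at the end of each protein binds AMPA-type glutamate receptors and helps to cluster them, and complexes rich in Nptx2 are known at excitatory inputs onto parvalbumin interneurons. Nptx2, also called Narp, was first described as an immediate early gene of neurons, whereas Nptx1 and Nptxr are not known for rapid induction by activity.

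In mm10 coordinates (GENCODE M21), Nptx2 (ENSMUSG00000059991) lies on the plus strand at chr5:144545902-144557478. Nptx1 (ENSMUSG00000025582) lies on the minus strand at chr11:119538719-119547753. Nptxr (ENSMUSG00000022421) lies on the minus strand at chr15:79786351-79804766, where the annotated gene Npcd overlaps it on the same strand. Npcd had 1 UMI in O-Ex, 0 in O-Ctrl and 0 in Y-Ctrl. Whether reads in the overlap were lost to both genes was not tested. The longest protein-coding transcript of each member has 5 exons, and the longest reading frames run over 1299 bases in Nptx1, 1290 bases in Nptx2 and 1449 bases in Nptxr. Those frames were 61.6% identical between Nptx1 and Nptx2, 57.6% between Nptx2 and Nptxr and 54.4% between Nptx1 and Nptxr. The longest runs shared exactly by the full transcripts are shown because they bear on whether a read of one member could be counted for another:
Nptx1 and Nptx2 (coding in both): tgcagcagaaggagac
Nptx2 and Nptxr (coding in both): gagctcaccggcaagctgg
Nptx1 and Nptxr (a repeat after the reading frame of both): agagagagagagagaga
These runs are 16, 19 and 17 bases long, and no pair of members shared any run of 90 bases.

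UMI totals were 53196124 in O-Ex, 58234443 in O-Ctrl and 62348064 in Y-Ctrl. Barcodes with at least 3000 UMIs were kept as tissue spots, which left 3332, 3498 and 3409 spots in that order of sections, with median depths between 13685 and 15718 UMIs. A spot is a small piece of tissue that can hold several cells, so fewer cells of a type and less RNA per cell cannot be told apart. All 4992 array barcodes are on the lists of all 3 sections, since they name array positions and not cells. Clustering gave 20 clusters, which were joined by marker names into spot groups, and 16 groups had at least 20 spots in every section. Groups whose leading genes did not settle a name are called by their first gene: Egr1-led, Tshz2-led, Gad2-led and Hba-a2-led. The Ctgf-led group holds markers of cortical layers 6 and 6b, the Lypd1-led group holds markers of amygdala and piriform cortex, and the Ttr-led group holds those of ependyma and choroid plexus.

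The sections did not hold the same tissue in every group. A thalamic cluster led by Calb2 and Tcf7l2 had 4 spots in O-Ex, 6 in O-Ctrl and 227 in Y-Ctrl. The Ttr-led group carried 8 habenula marker genes at a summed 65.5 CPM in O-Ex, 93.4 CPM in O-Ctrl and 1220 CPM in Y-Ctrl. Among them Tac2, a neuropeptide gene of the medial habenula, was at 0 CPM in O-Ex, 2.93 CPM in O-Ctrl and 456 CPM in Y-Ctrl. In hypothalamic spots Pmch, the precursor of melanin-concentrating hormone, stood at 55.5 CPM in O-Ex, 207 CPM in O-Ctrl and 6019 CPM in Y-Ctrl. The striatal group held 37 spots in O-Ex, 173 in O-Ctrl and 165 in Y-Ctrl. Each difference between sections is therefore given over the whole section and as the region-matched ratio, the mean over the 16 groups, each with equal weight, of the log2 ratio of CPM + 5. Values without the thalamic, Ttr-led and hypothalamic groups are given where they differ.

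Over whole sections, Nptx2 was the member that stood lower in O-Ctrl than in Y-Ctrl, while Nptx1 had the largest fold of the 3 in O-Ex over O-Ctrl. Nptx1 reached 157 CPM in O-Ex (95% exact Poisson interval 154 to 161), 120.1 CPM in O-Ctrl (117 to 123) and 123 CPM in Y-Ctrl (121 to 126). Nptx2 reached 23.0 CPM in O-Ex (21.7 to 24.3), 19.8 CPM in O-Ctrl (18.6 to 21.0) and 33.5 CPM in Y-Ctrl (32.0 to 34.95). Nptxr, which anchors the complexes in the membrane, reached 246 CPM in O-Ex (242 to 250.2), 217 CPM in O-Ctrl (213 to 221) and 209 CPM in Y-Ctrl (205 to 212). For Nptx2 the intervals of the 3 sections did not overlap, and O-Ctrl was the lowest. For Nptx1 the O-Ctrl and Y-Ctrl intervals overlapped and O-Ex lay above both. The intervals here and below cover counting error only, and how many other genes have intervals as far apart was not counted.

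**Figure D1:**
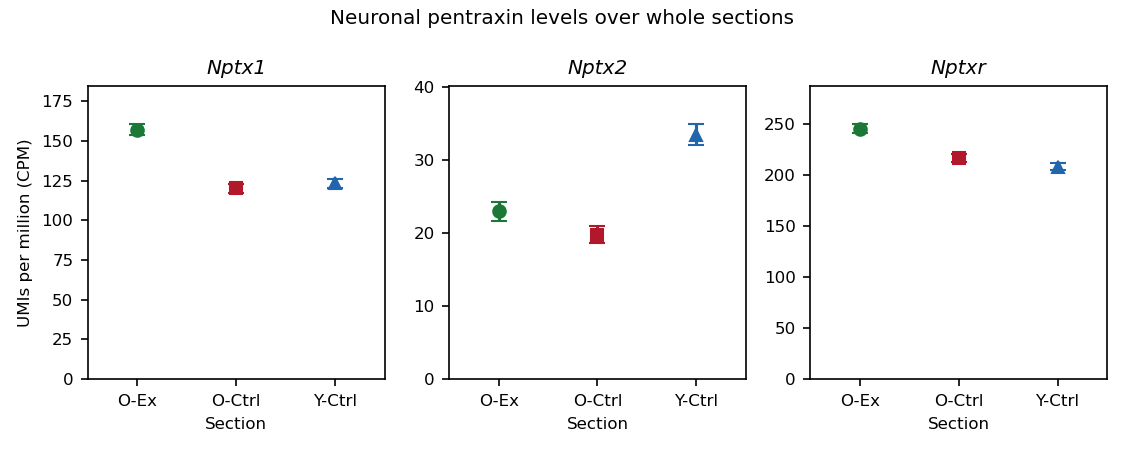
Levels of Nptx1, Nptx2 and Nptxr over all tissue spots of the O-Ex, O-Ctrl and Y-Ctrl sections, in CPM (UMIs of the gene scaled to the same total in each section, linear axes from 0). Points are the sums of 1 section each and bars are 95% exact Poisson intervals; Nptx2 is at 23.0 CPM in O-Ex, 19.8 CPM in O-Ctrl and 33.5 CPM in Y-Ctrl.

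The numbers behind these levels were 1193 Nptx2 UMIs in O-Ex, 1127 in O-Ctrl and 2048 in Y-Ctrl, far fewer than for the other members. After every spot was thinned to 3000 UMIs, Nptx2 was seen in 5.67% of O-Ex spots (exact binomial interval 4.91 to 6.51), 4.60% of O-Ctrl spots (3.93 to 5.35) and 7.80% of Y-Ctrl spots (6.92 to 8.75). Without thinning the shares were 21.9% in O-Ex, 20.0% in O-Ctrl and 33.1% in Y-Ctrl. White matter spots, which hold few neuronal cell bodies, gave thinned Nptx2 shares of 1.53% in O-Ex, 0.998% in O-Ctrl and 1.09% in Y-Ctrl, below the share of the whole section in each case. The tenth of spots with most Nptx2 UMIs held 66.7% of them in O-Ex, 69.0% in O-Ctrl and 56.8% in Y-Ctrl, a share that also depends on how few UMIs there are. Spots with 5 or more Nptx2 UMIs numbered 26 in O-Ex, 27 in O-Ctrl and 62 in Y-Ctrl.

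The members had different maps. Nptx1 had its highest value in the hippocampal CA2 and CA3 group in every section, at 677 CPM in O-Ex, 582 CPM in O-Ctrl and 530.1 CPM in Y-Ctrl. The dentate gyrus followed with 651 CPM in O-Ex, 516 CPM in O-Ctrl and 486 CPM in Y-Ctrl. Ctgf-led spots came next with 343 CPM in O-Ex, 303 CPM in O-Ctrl and 288 CPM in Y-Ctrl. The order of the CA2 and CA3 group and the dentate gyrus was within counting error in all 3 sections. CA1 was lower, at 231 CPM in O-Ex, 197 CPM in O-Ctrl and 204 CPM in Y-Ctrl. Nptx1 was low in the thalamus, at 29.6 CPM in O-Ex, 14.0 CPM in O-Ctrl and 10.2 CPM in Y-Ctrl. Of the 15 pairs of neighbours in the order of groups, 8 in O-Ex, 8 in O-Ctrl and 9 in Y-Ctrl differed beyond their counting intervals.

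Nptxr had its highest value in the Lypd1-led spots, at 821 CPM in O-Ex, 744 CPM in O-Ctrl and 609 CPM in Y-Ctrl. It ranked 2nd among the leading genes of that cluster although it had been kept out of the clustering. The CA2 and CA3 group followed with 769 CPM in O-Ex, 633 CPM in O-Ctrl and 542 CPM in Y-Ctrl, and upper cortical layers with 460 CPM in O-Ex, 400.3 CPM in O-Ctrl and 412 CPM in Y-Ctrl. Ctgf-led spots, among the highest for Nptx1, held Nptxr at 160.3 CPM in O-Ex, 132 CPM in O-Ctrl and 124 CPM in Y-Ctrl, close to its median over groups of 164 CPM in O-Ex, 109 CPM in O-Ctrl and 137 CPM in Y-Ctrl. Of 15 neighbour pairs, 7 in O-Ex, 9 in O-Ctrl and 8 in Y-Ctrl were apart; the top pair was apart in O-Ctrl and Y-Ctrl and not in O-Ex.

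Nptx2 had its highest value in the Lypd1-led spots as well, at 52.9 CPM in O-Ex, 56.0 CPM in O-Ctrl and 68.5 CPM in Y-Ctrl. Upper cortical layers held 52.3 CPM in O-Ex, 41.5 CPM in O-Ctrl and 56.3 CPM in Y-Ctrl. The first of these was apart from the second in O-Ctrl and Y-Ctrl but not in O-Ex. Of all 15 neighbour pairs, 14 in O-Ex, 14 in O-Ctrl and 13 in Y-Ctrl could not be separated. Unlike Nptx1, Nptx2 was not high in the dentate gyrus, where it had 23.4 CPM in O-Ex, 15.3 CPM in O-Ctrl and 16.4 CPM in Y-Ctrl from 30, 10 and 15 UMIs. White matter was at 5.001 CPM in O-Ex, 3.04 CPM in O-Ctrl and 5.18 CPM in Y-Ctrl.

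**Figure D2:**
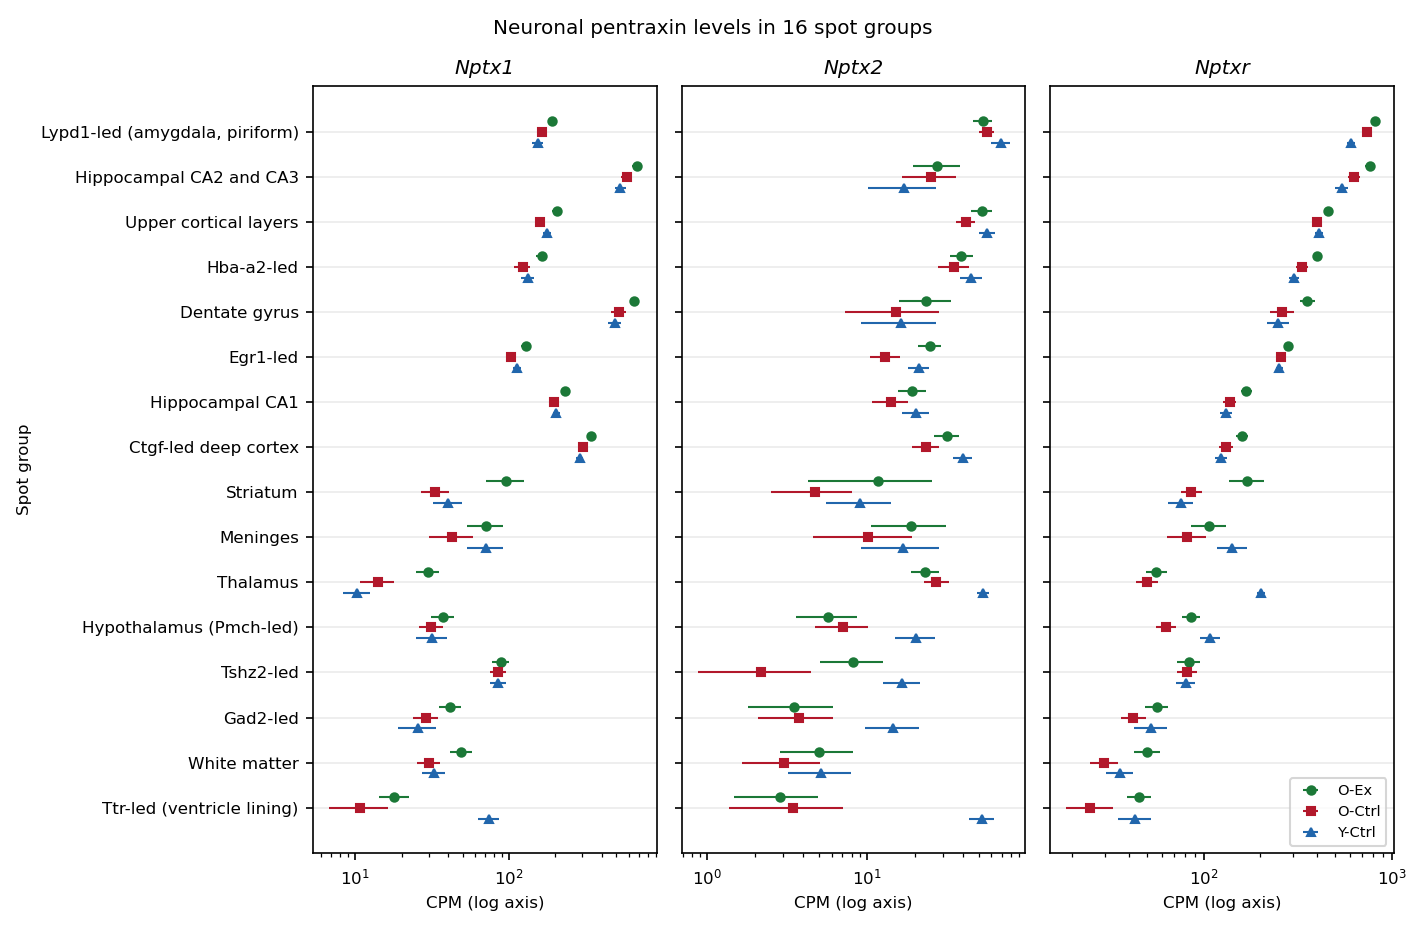
Levels of the 3 members (CPM, log axes) in the 16 spot groups with at least 20 spots in each section, ordered by mean Nptxr level, for O-Ex (circles), O-Ctrl (squares) and Y-Ctrl (triangles) with 95% exact Poisson intervals. Nptx1 peaks in CA2 and CA3 and in the dentate gyrus, Nptxr in the Lypd1-led spots, and Nptx2 of the Ttr-led spots is at 52.5 CPM in Y-Ctrl.

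Over the 48 points formed by 16 groups in 3 sections, log2 levels of Nptx1 and Nptxr had a Pearson r of 0.75, Nptx2 and Nptxr 0.71, and Nptx1 and Nptx2 0.46. These are descriptions, since points of a section share a library and points of a group share a tissue. The genes most like Nptx1 by this measure were Neurod2, a transcription factor of forebrain excitatory neurons (r = 0.94), Ryr2, a calcium release channel (0.94), Fam131a (0.93), Plekhg5 (0.92) and Mmp17, a membrane-anchored metalloprotease (0.92). Among the genes most like Nptxr were Enc1, an actin-associated protein of neurons (0.91), Klhl23 (0.90), Arf3 (0.89) and Zfp697 (0.87). For Nptx2 the closest were Pcsk2, a prohormone convertase (0.77), Cacnb3, a calcium channel subunit (0.75), Ncan, a proteoglycan of the extracellular matrix (0.74), Man1a2 (0.74) and B3gat1, which makes a carbohydrate epitope of neural adhesion molecules (0.73).

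The comparison of O-Ctrl with Y-Ctrl asks what differs between an old and a young control brain. Nptx2 stood at 19.8 CPM in O-Ctrl and 33.5 CPM in Y-Ctrl, a fold of 0.591 (0.549 to 0.636), or 1.69 times lower. On the log2(CPM + 5) scale the whole-section ratio was -0.64. Of the 9013 genes that averaged 10 CPM or more, 0.244% were at least 1.5-fold lower and 0.377% at least 1.5-fold higher. Its region-matched ratio was -0.69 (-0.81 to -0.57), against a median of -0.02 over all genes, and 0.0777% of genes were at least 1.5-fold lower and 0.244% at least 1.5-fold higher on that measure. Nptx2 was the 1 member of 3 past that fold, and ranked 4th from the lowest of the 9013 genes. Without the thalamic, Ttr-led and hypothalamic groups the ratios were -0.40 over the remaining spots and -0.49 region-matched, which is short of 1.5-fold. The Gad2-led group stayed in, with Nptx2 at 3.73 CPM in O-Ctrl and 14.6 CPM in Y-Ctrl, from 15 and 28 UMIs. Its content differed too, with Pmch at 28.9 CPM in O-Ctrl and 194 CPM in Y-Ctrl. Leaving out the Ttr-led group alone gave -0.55 region-matched.

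Nptx2 was lower in O-Ctrl in 15 of the 16 groups, and 1.41% of genes were lower in at least 15. Its counting interval lay below 1 in 10 groups, a count for which no share over all genes was computed. In upper cortical layers Nptx2 was at 41.5 CPM in O-Ctrl and 56.3 CPM in Y-Ctrl (fold 0.737, 0.611 to 0.887). In Ctgf-led spots it was at 23.4 CPM in O-Ctrl and 39.8 CPM in Y-Ctrl (0.587, 0.461 to 0.744). In Egr1-led spots it was at 13.0 CPM in O-Ctrl and 21.1 CPM in Y-Ctrl (0.617, 0.471 to 0.802). Nptx2 was thus lower in O-Ctrl, beyond counting error, in these 3 groups. In the Lypd1-led spots, where Nptx2 was highest, the fold was nearer 1. There Nptx2 was at 56.0 CPM in O-Ctrl and 68.5 CPM in Y-Ctrl (0.818, 0.689 to 0.972). In the Hba-a2-led spots, at 35.03 CPM in O-Ctrl and 45.0 CPM in Y-Ctrl, the interval included 1 (0.778, 0.587 to 1.02). The Tshz2-led spots, whose leading genes include the parvalbumin gene Pvalb, held 7 Nptx2 UMIs in O-Ctrl and 58 in Y-Ctrl, which is 2.16 CPM in O-Ctrl and 16.7 CPM in Y-Ctrl (0.130, 0.0499 to 0.285). The hippocampus was less uniform. CA1 gave 14.0 CPM in O-Ctrl and 20.2 CPM in Y-Ctrl (0.695, 0.504 to 0.952), while the dentate gyrus (0.931, 0.374 to 2.22) and the CA2 and CA3 group (1.47, 0.788 to 2.83) had intervals that include 1. The CA1 group joined 2 clusters: in the one led by Spink8, Nptx2 was at 36.2 CPM in O-Ctrl and 37.8 CPM in Y-Ctrl, and in the one led by Cabp7 at 8.72 CPM in O-Ctrl and 13.5 CPM in Y-Ctrl. Taken alone, both clusters had intervals that include 1 (0.956, 0.602 to 1.49, for Spink8 and 0.647, 0.405 to 1.02, for Cabp7).

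Low Nptx2 ratios were also found in the groups whose content differed between sections. Ttr-led spots had 7 Nptx2 UMIs in O-Ctrl and 119 in Y-Ctrl (fold 0.0653, 0.0257 to 0.139), in the section where habenula genes were 1220 CPM. The thalamus stood at 27.2 CPM in O-Ctrl and 53.0 CPM in Y-Ctrl (0.513, 0.418 to 0.625). Within its cluster led by Prkcd, present in all 3 sections, Nptx2 was at 30.7 CPM in O-Ctrl and 46.1 CPM in Y-Ctrl (0.665, 0.526 to 0.836). In the thalamic cluster led by Ctxn3, also present in all 3 sections, it was at 9.98 CPM in O-Ctrl and 37.3 CPM in Y-Ctrl (0.268, 0.115 to 0.574). Nptx2 was thus lower in O-Ctrl in both clusters, and the part of tissue content in the thalamic value was not tested. The hypothalamus had 7.05 CPM in O-Ctrl and 20.2 CPM in Y-Ctrl (0.349, 0.213 to 0.563).

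Nptx2 is known in orexin neurons, which are marked by Hcrt. Hypothalamic spots with at least 10 Hcrt UMIs numbered 0 in O-Ex, 1 in O-Ctrl and 33 in Y-Ctrl, so only Y-Ctrl allows a comparison. There Nptx2 was at 24.4 CPM in the Hcrt-rich spots (13.4 to 41.0) and 18.9 CPM in the other hypothalamic spots (13.2 to 26.1), a fold of 1.30 (0.645 to 2.46) that counting error does not separate from 1. In the hypothalamic spots below 10 Hcrt UMIs, Nptx2 stood at 5.71 CPM in O-Ex, 7.06 CPM in O-Ctrl and 18.9 CPM in Y-Ctrl.

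Nptx1 and Nptxr gave no such pattern between O-Ctrl and Y-Ctrl. Nptx1 had a fold of 0.974 (0.942 to 1.01) and a region-matched ratio of -0.18, with 6 groups higher and 10 lower. Leaving out the Ttr-led group, where Nptx1 was at 10.8 CPM in O-Ctrl and 73.6 CPM in Y-Ctrl, brought the ratio to -0.04. Nptxr had a fold of 1.04 (1.02 to 1.07) over the sections and a region-matched ratio of -0.22, so the measures differ in sign. In the thalamus Nptxr was at 50.03 CPM in O-Ctrl and 202 CPM in Y-Ctrl, and leaving that group out brought the ratio to -0.11. In Y-Ctrl the cluster led by Calb2 and Tcf7l2, nearly missing from the other sections, held Nptxr at 474 CPM. In the Prkcd-led cluster Nptxr was at 53.3 CPM in O-Ctrl and 59.5 CPM in Y-Ctrl (fold 0.896, 0.745 to 1.08). Without the thalamic, Ttr-led and hypothalamic groups the Nptxr ratio was -0.02. Over the 16 groups Nptxr was higher in O-Ctrl beyond counting error in 3, lower in 4 and within it in 9, with no share over all genes computed. In the Lypd1-led spots it was higher in O-Ctrl, at 744 CPM in O-Ctrl and 609 CPM in Y-Ctrl (1.22, 1.16 to 1.29).

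**Figure D3:**
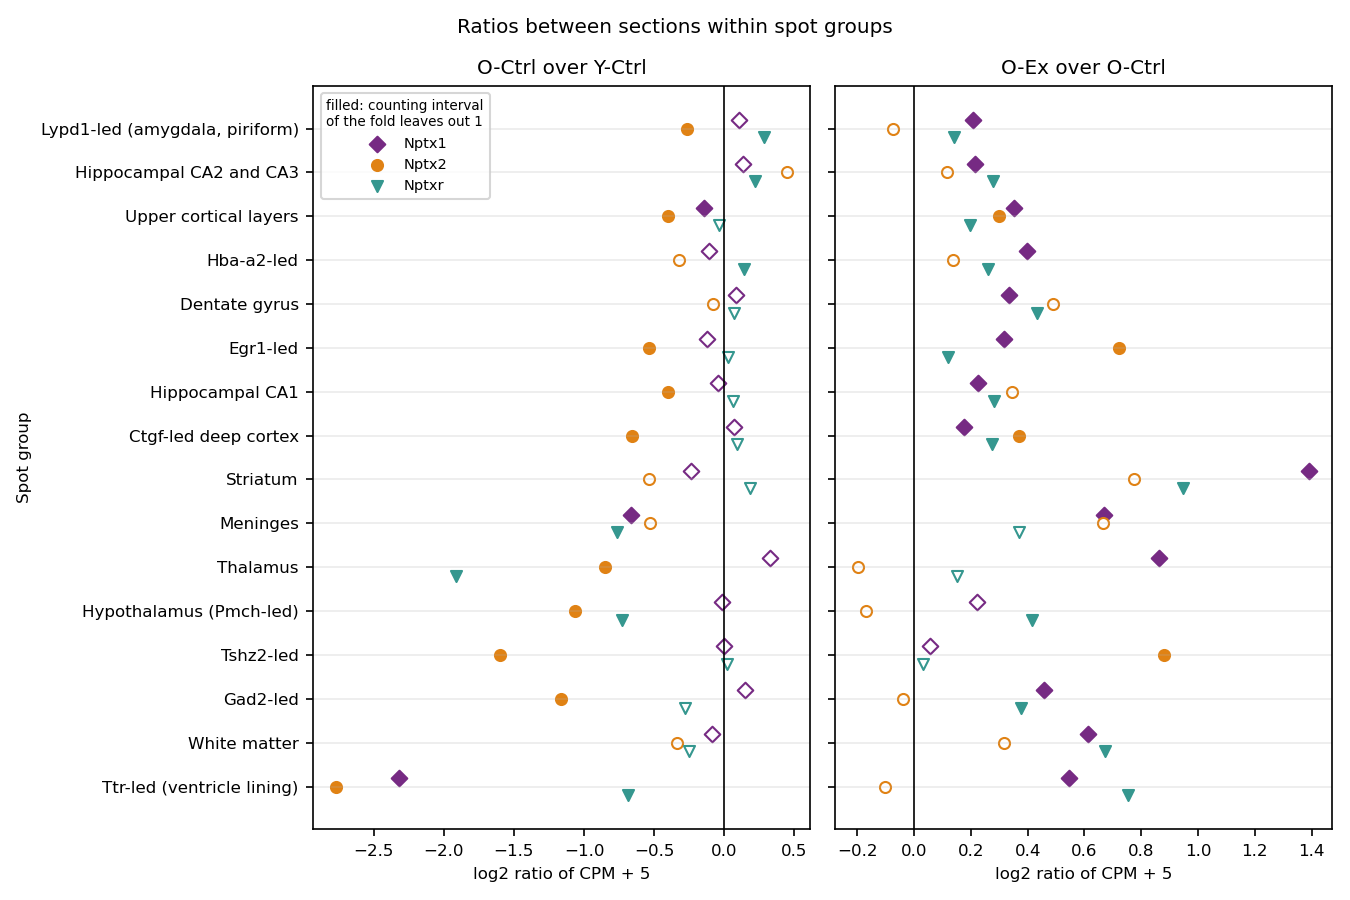
Log2 ratios of CPM + 5 in the 16 spot groups for O-Ctrl over Y-Ctrl and O-Ex over O-Ctrl; filled symbols mark groups where the 95% counting interval of the fold leaves out 1. Nptx2 (circles) is left of 0 in 15 of 16 groups for O-Ctrl over Y-Ctrl, and Nptx1 (diamonds) and Nptxr (triangles) are right of 0 in 16 of 16 for O-Ex over O-Ctrl.

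The comparison of O-Ex with O-Ctrl asks what accompanies exercise in the old brain. All 3 members were higher in O-Ex, as were 6622 of 9013 genes by the region-matched ratio, and none was at least 1.5-fold higher. Past that fold were 0.699% of genes over the sections and 0.233% region-matched, and 0.133% and 0.0666% were as far lower. Nptx1 stood at 157 CPM in O-Ex and 120.1 CPM in O-Ctrl, a fold of 1.31 (1.27 to 1.35). Its region-matched ratio was 0.44 (0.37 to 0.51), rank 51 from the highest of the 9013 genes, whose median was 0.08. Nptxr had a fold of 1.13 (1.11 to 1.16) and a region-matched ratio of 0.36. Both were higher in O-Ex in 16 of 16 groups, as were 1.96% of genes. Their counting intervals lay above 1 in 14 groups for Nptx1 and 13 for Nptxr. Such intervals are narrower for abundant genes, and the share of all genes with as many was not computed.

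The ratios of Nptx1 ranged over the groups from a fold of 1.04 in Tshz2-led spots (0.869 to 1.25) to 2.87 in the striatal group. The dentate gyrus held 10.2% of Nptx1 UMIs in O-Ex and 4.94% in O-Ctrl. Its share of the UMIs of all genes was also larger in O-Ex, at 2.4687% in O-Ex and 1.14965% in O-Ctrl. There Nptx1 was at 651 CPM in O-Ex and 516 CPM in O-Ctrl (fold 1.26, 1.11 to 1.44). In CA2 and CA3 it was at 677 CPM in O-Ex and 582 CPM in O-Ctrl (1.16, 1.05 to 1.29). In upper cortical layers it was at 205 CPM in O-Ex and 159 CPM in O-Ctrl (1.29, 1.16 to 1.43). In the Prkcd-led thalamic cluster it was at 23.2 CPM in O-Ex and 8.89 CPM in O-Ctrl (2.61, 1.68 to 4.14). The striatal group gave 95.1 CPM in O-Ex and 33.1 CPM in O-Ctrl (2.87, 1.99 to 4.11), and held 37 spots in O-Ex. There the median log2 ratio of 8 oligodendrocyte genes was 1.14 and that of 10 excitatory neuron genes 0.59. In Hba-a2-led spots these medians were 0.68 and 0.34, with a median depth of 5042 UMIs in O-Ex and 13070 in O-Ctrl. The excitatory median was 0.40 in white matter. Median depth in the dentate gyrus was 45923 UMIs in O-Ex and 25551.5 in O-Ctrl. These groups are among the 16, and the part of such differences in the result was not tested. The ratio was also computed over 8 groups taken as cortical and hippocampal (upper layers, Ctgf-led, Lypd1-led, Egr1-led, Tshz2-led, CA1, CA2 and CA3, dentate gyrus). It was 0.23 for Nptx1, 0.39 for Nptx2 and 0.22 for Nptxr, so Nptx2 had the largest ratio of the 3 there. The Egr1-led and Tshz2-led groups were counted there without a settled name, and Hba-a2-led spots were left out.

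Nptx2 was at 23.0 CPM in O-Ex and 19.8 CPM in O-Ctrl, a fold of 1.16 (1.07 to 1.26), with a region-matched ratio of 0.28 (0.15 to 0.41). It was higher in O-Ex in 11 groups and lower in 5. Its interval lay above 1 in 4 groups, again without a share over all genes. Egr1-led spots had 24.7 CPM in O-Ex and 13.0 CPM in O-Ctrl (1.90, 1.44 to 2.51). Ctgf-led spots had 31.6 CPM in O-Ex and 23.4 CPM in O-Ctrl (1.35, 1.04 to 1.77). Upper layers had 52.3 CPM in O-Ex and 41.5 CPM in O-Ctrl (1.26, 1.02 to 1.55). Tshz2-led spots had 21 UMIs in O-Ex and 7 in O-Ctrl (3.79, 1.55 to 10.5). In the Prkcd-led thalamic cluster, 26.7 CPM in O-Ex and 30.7 CPM in O-Ctrl could not be separated (0.872, 0.641 to 1.18), and neither could the Lypd1-led spots (0.944, 0.795 to 1.12). Both comparisons use the O-Ctrl section, so a low value in it enters both. Set beside Y-Ctrl directly, Nptx2 was at 23.0 CPM in O-Ex and 33.5 CPM in Y-Ctrl, a fold of 0.687 (0.639 to 0.738). The region-matched ratio of O-Ex over Y-Ctrl was -0.41 (-0.53 to -0.28). Its interval lay below 1 in 7 of 16 groups and included 1 in 9, with no share over all genes computed. The fold was 0.928 (0.767 to 1.12) in upper layers and 0.435 (0.347 to 0.541) in the thalamus, whose content differed between sections.

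Genes that act with the pentraxins were read from lists, whose counts are set beside those of all genes. Numbers in brackets for list genes are region-matched log2 ratios unless named, while their CPM values are of whole sections, so they need not match. Of the 9013 genes, 3864 were higher and 5149 lower in O-Ctrl than Y-Ctrl by the region-matched ratio. In O-Ex against O-Ctrl 6622 were higher and 2391 lower, so most genes lay on the higher side. With trimmed-mean scaling (TMM), which lowers the ratios of that comparison, 4604 were higher and 4409 lower. Of 15 AMPA receptor subunits and auxiliary subunits, 14 passed the 10 CPM filter. In O-Ctrl against Y-Ctrl 2 of these were higher and 12 lower, with a median ratio of -0.06 and none past 1.5-fold. Gria2, a core subunit, was at 229 CPM in O-Ctrl and 240 CPM in Y-Ctrl (-0.06), and Cnih2, an auxiliary subunit, at 285 CPM in O-Ctrl and 333 CPM in Y-Ctrl (-0.24). In O-Ex against O-Ctrl 13 were higher and 1 lower, median 0.15, and Gria2 was at 299 CPM in O-Ex and 229 CPM in O-Ctrl (0.33). With trimmed-mean scaling, 10 were higher and 4 lower, median 0.08. Of 24 secreted and adhesion synapse organizers past the filter, 24 were higher in O-Ex than O-Ctrl, median 0.16, or 20 with trimmed-mean scaling. Among them Cbln4, a cerebellin, was at 38.6 CPM in O-Ex and 24.8 CPM in O-Ctrl (0.33). C1ql2, a secreted C1q-like protein of mossy fibre synapses, was at 27.5 CPM in O-Ex and 14.4 CPM in O-Ctrl (0.35 region-matched, 0.75 whole-section). C1ql2 was also the first leading gene of the dentate gyrus cluster, whose share of all UMIs was larger in O-Ex. The part of that share in its whole-section CPM was not tested. In O-Ctrl against Y-Ctrl these organizers split 9 higher and 15 lower, median -0.04.

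Of 23 activity-dependent genes past the filter, a list without Nptx2, 0 were higher and 23 lower in O-Ctrl than Y-Ctrl by the region-matched ratio, with a median of -0.27 and 2 past 1.5-fold, beside 5149 of 9013 lower over all genes. Those 2 were Arc, at 27.8 CPM in O-Ctrl and 62.3 CPM in Y-Ctrl (-0.66), and Fos, at 10.6 CPM in O-Ctrl and 24.2 CPM in Y-Ctrl (-0.61). In O-Ex against O-Ctrl 15 were higher and 8 lower, median 0.08, or 12 and 11 with trimmed-mean scaling, beside a median of 0.08 and 6622 of 9013 higher over all genes. Egr1 was at 127 CPM in O-Ex and 85.6 CPM in O-Ctrl (0.56), and Arc at 20.2 CPM in O-Ex and 27.8 CPM in O-Ctrl (-0.23).

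Of 13 genes of parvalbumin interneurons and perineuronal nets, 10 were higher and 3 lower in O-Ctrl than Y-Ctrl, median 0.16. Pvalb was at 310 CPM in O-Ctrl and 256 CPM in Y-Ctrl (log2 ratio 0.52 region-matched, 0.27 whole-section). Gad1, the GABA-synthesizing enzyme, was at 210.1 CPM in O-Ctrl and 185 CPM in Y-Ctrl (0.33 region-matched, 0.18 whole-section). The 3 lower were the net genes Ncan (-0.21) and Tnr (-0.19) and the potassium channel gene Kcnc2 (-0.07). The net genes Hapln4 (0.16) and Bcan (0.09) were higher, so net genes went both ways. In O-Ex against O-Ctrl 8 were higher and 5 lower, median 0.0090, and 5 and 8 with trimmed-mean scaling, median -0.07, or 6 and 7 without mitochondrial genes in the total, median -0.03. Of 6 complement genes, whose products include ligands of the neuronal pentraxins, 4 were higher in O-Ctrl than Y-Ctrl. C4b stood at 90.8 CPM in O-Ctrl and 15.2 CPM in Y-Ctrl (1.57 region-matched, 2.25 whole-section). In O-Ex against O-Ctrl all 6 were higher, beside 6622 of 9013 genes, with a median of 0.23. With trimmed-mean scaling the 6 stayed higher, median 0.15. Rcn2, a reported pentraxin binding protein, was at 146 CPM in O-Ctrl and 150 CPM in Y-Ctrl (-0.05), and at 161 CPM in O-Ex (0.10 over O-Ctrl). The 6 other genes with a pentraxin domain summed to 3.07 CPM in O-Ex, 2.91 CPM in O-Ctrl and 2.68 CPM in Y-Ctrl, and 0 passed the filter.

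Neuron and glia lists were read beside the members. In O-Ctrl against Y-Ctrl the median ratio was -0.10 for 10 excitatory neuron genes, -0.05 for 10 pan-neuronal genes and 0.02 for 8 oligodendrocyte genes. In O-Ex against O-Ctrl the medians were 0.16, 0.08 and 0.14 for the same lists. Microglial, astrocyte and endothelial medians were 0.13, 0.05 and -0.05 in O-Ctrl over Y-Ctrl and 0.10, -0.04 and 0.19 in O-Ex over O-Ctrl. The pentraxin ratios in O-Ex lay above all of these list medians; the part of cell makeup in them was not tested.

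**Figure D4:**
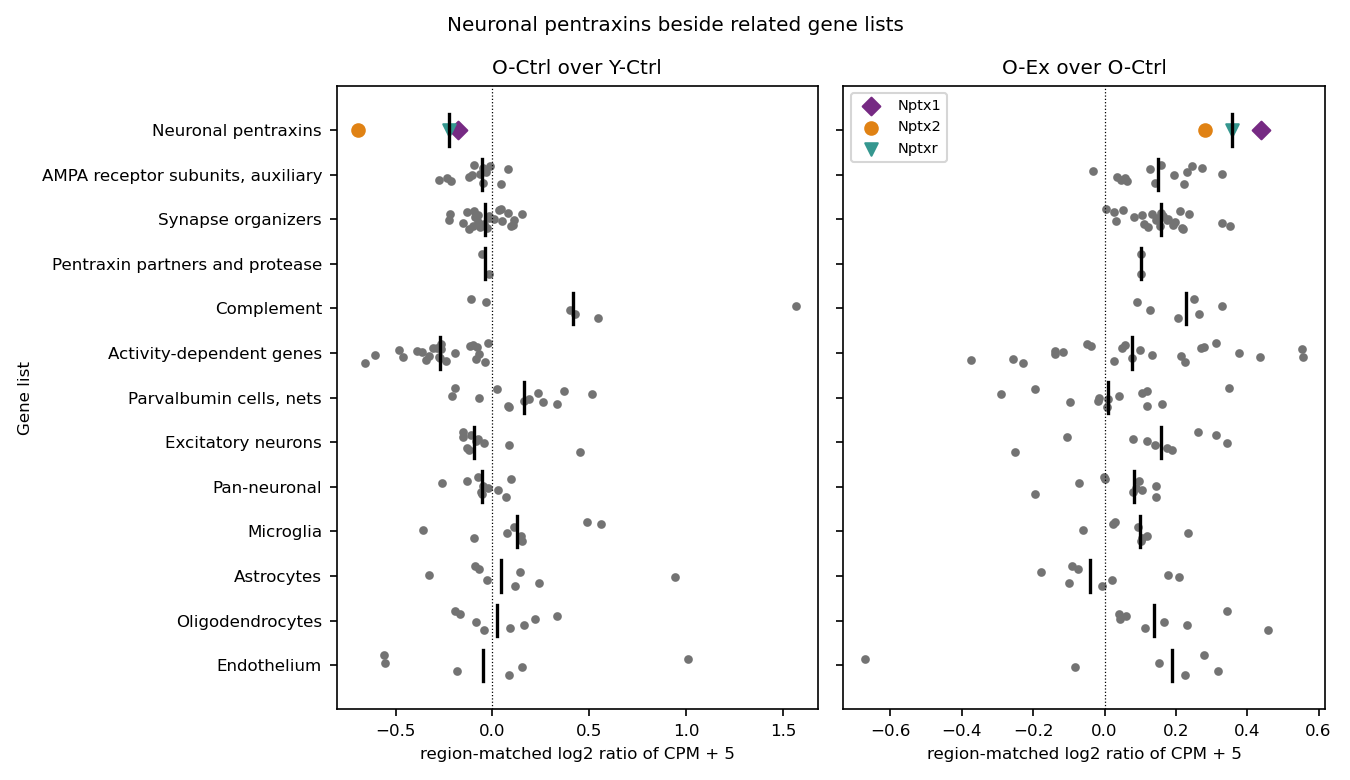
Region-matched log2 ratios of CPM + 5 for the members and for the genes of 12 related lists past the 10 CPM filter, O-Ctrl over Y-Ctrl and O-Ex over O-Ctrl. Grey points are genes and bars are list medians; the medians of the activity-dependent list are -0.27 and 0.08, beside -0.69 and 0.28 for Nptx2.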

How the data were processed

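Per the file headers, the authors ran Space Ranger 2.0.0; the submitters' processing notes name the build mm10. The deposited values are counts of UMIs per gene and barcode, with no normalization. The labels name the molecule nuclear RNA although whole fresh-frozen sections were used. Counts of spots with at least 3000 UMIs were summed per section and group and given as CPM, with 95% exact Poisson, binomial or conditional intervals that cover counting error only. Depth per section is given in the report. Clusters were found over all spots jointly in scanpy 1.11.5 (counts scaled to 10000, 2000 variable genes scaled within a section, 30 components, 15 neighbours, Leiden resolution 0.8). The members and 5 related lists (activity-dependent, AMPA receptor, synapse organizer, complement, parvalbumin) were kept out of the variable genes. Clusters were named by at least 3 markers among 30 leading genes and joined by name. The clustering was computed in double precision with rounded weights because the clusters of an earlier single-precision run depended on the processor setting. The results of that run, with Nptx2 lower in O-Ctrl in 16 of 16 groups, had been examined before it was replaced. Ratios are log2 of CPM + 5. With 1 section per group no p-value was computed. The ratio steps were tested on simulated data. The members and lists were chosen with earlier results of these data known. Genes named are the members, the 2 most abundant and the 2 with the largest absolute ratio of a list in each comparison (not all are printed), and the 5 genes most like each member, of which 1 is not reported here. TMM factors came from edgeR 4.0.16. Of 162 list symbols, 1 matched no gene. RefSeq promoters matched 0 of 3 members, so none is shown.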

Additional observations from a re-analysis of the deposited data

Results flagged for a closer look

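Barcodes under 3000 UMIs were outside every comparison and still held the members above the limit of 3 counts. Nptx1 was at 103 CPM in O-Ex, 102 CPM in O-Ctrl and 87.0 CPM in Y-Ctrl there. Nptx2 was at 16.5 CPM in O-Ex (10.3 to 24.98), 38.2 CPM in O-Ctrl (28.1 to 50.8) and 32.7 CPM in Y-Ctrl (23.2 to 44.9), from 22, 47 and 38 UMIs, and the O-Ctrl and Y-Ctrl intervals overlap. The O-Ex interval of Nptx2 lay below that of O-Ctrl, the reverse of their order in tissue spots. Nptxr was at 155 CPM in O-Ex (135 to 178), 232 CPM in O-Ctrl (205 to 260) and 215 CPM in Y-Ctrl (189 to 244), with O-Ex again below O-Ctrl. Nptxr in O-Ctrl over Y-Ctrl went opposite ways between spot groups beyond counting error, higher in 3 (Lypd1-led, CA2 and CA3, Hba-a2-led) and lower in 4 (thalamus, Ttr-led, hypothalamus, meninges). The log2 ratios farthest apart were 0.29 in the Lypd1-led spots and -1.91 in the thalamus; the difference between the groups was not tested.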

How the results depend on the processing

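All ratios are log2 of CPM + 5 and region-matched unless named whole-section; 1 section per group and few Nptx2 UMIs per group limit what can be told apart. Nptxr in O-Ctrl over Y-Ctrl had no stable sign: it was 0.06 whole-section and -0.22 region-matched, -0.041 after thinning and 0.092 in the cortical and hippocampal groups, and Nptx1 there came to 0.0092; O-Ex over O-Ctrl stayed above 0 for all 3 members. Nptx2 in O-Ctrl over Y-Ctrl stayed below 0 in every alternative run and was short of 1.5-fold in several. Where a value moved, the cause was not tested. No paired analysis was possible because each group has 1 section. Leaving out each group in turn, O-Ctrl over Y-Ctrl ran from -0.21 to -0.037 for Nptx1, -0.77 to -0.55 for Nptx2 and -0.26 to -0.11 for Nptxr, and O-Ex over O-Ctrl from 0.38 to 0.47, 0.24 to 0.31 and 0.32 to 0.38; counts of genes past 1.5-fold ran from 24 to 30 and 23 to 30. In the order Nptx1, Nptx2, Nptxr, a 1000 UMI minimum gave -0.062, -0.50 and -0.11 for O-Ctrl over Y-Ctrl and 0.34, 0.091 and 0.24 for O-Ex over O-Ctrl; a 5000 minimum gave 0.42 for Nptxr in O-Ex. Pseudocount 1 gave Nptx2 -0.73 whole-section and -0.92, and pseudocount 20 -0.43 and -0.39, with Nptx1 in O-Ex at 0.35. TMM scaling gave O-Ex over O-Ctrl 0.29 whole-section and 0.36 for Nptx1, and 0.091 and 0.27 for Nptxr. Thinning gave whole-section -0.13 for Nptx1 and -0.041 for Nptxr, with 0.28 for Nptxr in O-Ex, and region-matched -0.56 for Nptx2 and, in O-Ex, 0.53 for Nptx1 and 0.48 for Nptxr. Resolution 1.5 gave Nptxr -0.13, and in O-Ex Nptx1 0.34 and Nptxr 0.27. Scaling over all sections gave Nptxr -0.16, and in O-Ex Nptx1 0.34 and Nptx2 0.15. Marker scores gave Nptxr 0.44 in O-Ex. Weighting by spots gave Nptx1 -0.064 and Nptxr -0.36, groups of at least 50 spots Nptx2 -0.84 and Nptxr -0.31, and each cluster on its own Nptxr -0.10. The following were chosen after seeing the data. Without the thalamic, Ttr-led and hypothalamic groups, O-Ctrl over Y-Ctrl gave -0.067, -0.49 and -0.018, and whole-section -0.10, -0.40 and 0.19; O-Ex over O-Ctrl whole-section gave 0.45, 0.30 and 0.24. The 8 groups taken as cortical and hippocampal gave 0.0092, -0.44 and 0.092, with 0.23 for Nptx1, 0.39 for Nptx2 and 0.22 for Nptxr in O-Ex. Another random start of the clustering gave Nptxr -0.14, and 0.29 in O-Ex; 3 such starts gave Nptx2 -0.67, -0.62 and -0.64. Genes past 1.5-fold numbered 56 whole-section and 29 region-matched in O-Ctrl over Y-Ctrl, and 75 and 27 in O-Ex over O-Ctrl. Region-matched they numbered 46 and 62 with pseudocount 1, 14 and 14 with pseudocount 20 (23 and 34 whole-section), 52 and 70 after thinning, and 8 and 10 at 2-fold (16 and 25 whole-section). A 2 CPM filter gave 93 whole-section and 49 region-matched in O-Ctrl over Y-Ctrl, and O-Ex over O-Ctrl without those 3 groups gave 34.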
